A study of Bos taurus with 6 samples.

Results

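Genes of the cell division cycle were followed in white blood cells of Sanhe heifers, a Chinese dual-purpose cattle breed, before and after a severe cold exposure. The 83 genes were chosen by a name pattern that uses no values, though with earlier results of these data known. They were taken from the 6337 genes that an Affymetrix bovine array measured under a single annotated symbol. The pattern took cyclins (CCNA to CCNK), cyclin-dependent kinases (CDK), CDC-numbered genes other than CDC42, centromere proteins (CENP), kinesins (KIF), MCM helicase subunits, condensin and cohesin subunits (NCAP, SMC), Aurora kinases, spindle checkpoint genes, NUSAP1, CKAP2 and PCNA. Because it works on names, it also took genes whose products mainly act elsewhere, such as the splicing factors CDC5L and CDC40. The pattern also allows MKI67, TOP2A, CCNA2, MCM2 and SMC2, which the rule for named genes lists as well. None of these had a probe set under its symbol alone, so they are not analysed here.

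Cell division runs through an ordered cycle. D and E cyclins with their kinases take a cell into DNA synthesis, the MCM helicase and the sliding clamp PCNA copy the chromosomes, and cyclin B with CDK1 starts mitosis. Condensins then compact the chromosomes, cohesin holds sister chromatids together, kinetochores attach them to the spindle, and the spindle checkpoint holds back the anaphase-promoting complex until all are attached. Most leukocytes in blood are not dividing, and RNA of mitotic genes there comes mainly from a minority of activated lymphocytes and precursors. In RNA from mixed cells, fewer cells of a type and less RNA per cell cannot be told apart.

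The labels describe female heifers kept in a shared cowshed on a total mixed ration. For the cold exposure they stood outdoors at -32 °C for 3 hours and were then kept indoors at 5 °C for 15 hours; when in this sequence the second blood sample was taken is not stated. There are 3 arrays after cold, numbered 1 to 3, and 3 before it, numbered 4 to 6, from 3 animals drawn from 30, each sampled at both times. Which samples share an animal is not stated, so the 6 arrays were compared without pairing, and the p-values take as independent some arrays that come from the same heifer. All values are log2 of the deposited probe set intensity, given for arrays 1, 2 and 3 after cold and 4, 5 and 6 before. Each gene is represented by its probe set with the highest mean. No detection calls were used, so a low value cannot be told from background: 20 of the 83 genes had a mean below 6.16, the 25th percentile of all probe sets.

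Some arrays of different groups were more alike than arrays of the same group. Over all probe sets, after 2 had a correlation of 0.995 with before 6. No cell cycle gene, and 4 of all 12763 probe sets, differed by over 2-fold between this pair. After 1 and before 4, also of different groups, had a correlation of 0.986. No cell cycle gene, and 107 of the 12763 probe sets, differed by over 2-fold between them. The correlation of after 2 with after 3, from the same group, was 0.874. Between these, 29 of the 83 genes and 4867 of the 12763 probe sets differed by over 2-fold. The leukocyte markers PTPRC, LCP1 and CORO1A were all measured, with a summed intensity of 11103 to 12288 after cold and 10484 to 12452 before. The measured markers of dividing progenitors, KIT and MYB (CD34 was not measured under its own symbol), summed to 83.5 to 195 after and 90.9 to 198 before, lowest on the after 3 array and second lowest on before 5. T cell markers (6 of 6 measured) summed to 9719 to 13336 after and 9694 to 15194 before. For all of these the groups overlapped, and their part in the results was not tested.

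No cell cycle gene passed the test for a difference after cold. With limma, 0 of the 83 passed an adjusted p of 0.05, where 0% of all 12763 probe sets and 0% of the 6337 genes did, and the smallest adjusted p among them was 1.00 (unrounded 0.999983). An unadjusted p under 0.05 was also reached by 0 of 83, against 0.537% of all genes. The smallest unadjusted p was 0.0539, for CKAP2L. The mean after cold was higher for 35 genes (42.2%, against 56.3% of all genes) and lower for 48 (57.8%, against 43.7%). The median change was -0.05, between quartiles of -0.32 and 0.13, against a median of 0.05 over all genes, and the genes' median standard error was 0.31. An error given with a change is the standard error (SE) of the limma fit, and an error given with a group mean is the standard deviation (SD) over 3 arrays. The sign of the median of the 83 genes depended on scaling: it was -0.02 with each array centred on its median, -0.0095 with cyclic loess and 0.0016 with quantile normalization. In the same order, the median over all genes was 0.080, 0.084 and 0.077, above that of the 83 genes each time. With 3 arrays a group, the smallest p that an exact two-sided permutation test allows is 0.1.

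**Figure D1:**
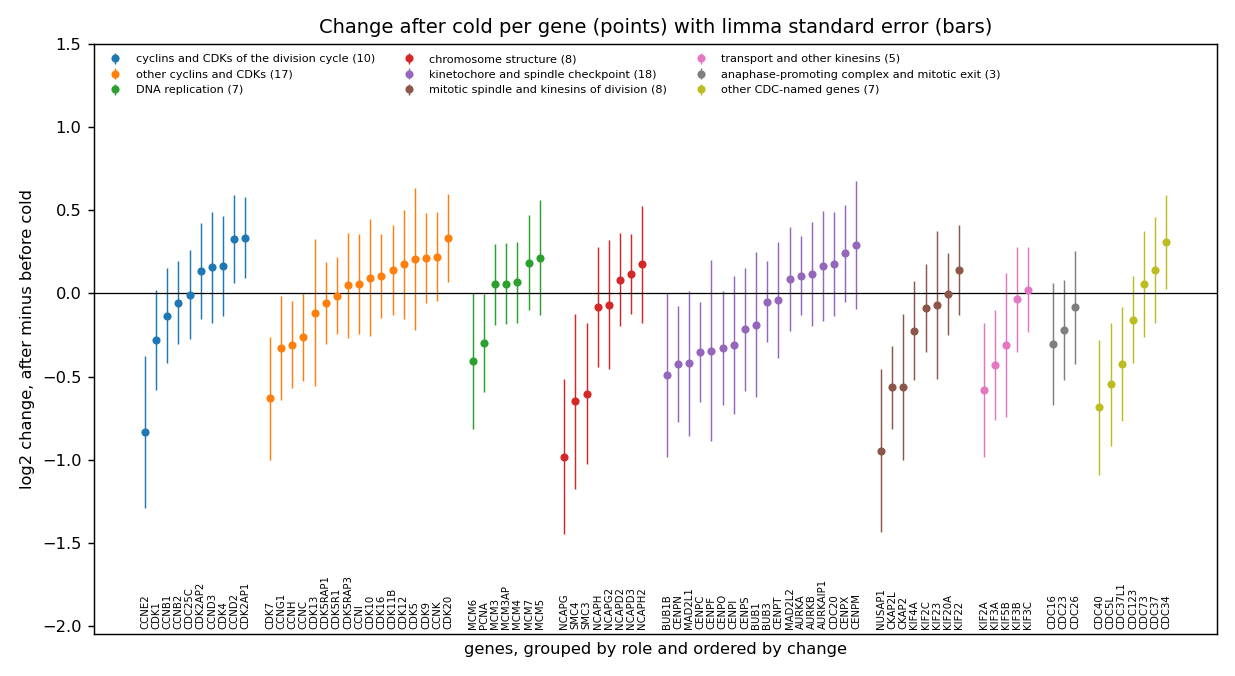
Change in log2 intensity (vertical axis, after minus before cold) for the 83 genes, grouped by role along the horizontal axis and ordered by change, with bars for the limma standard error. The changes run from -0.98 (NCAPG) to 0.33 (CDK2AP1 and CDK20), and the lower tail is longer than the upper. Over all genes they run from -1.24 to 0.79.

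The changes in the lower direction were larger than those in the higher one, in these genes as over all genes. A mean at least 1.5-fold lower after cold was seen in 7 of the 83 genes (8.43%, against 6.82% of all genes), and a mean at least 1.5-fold higher in 0 of 83 (0.142% of all genes). These 7 were NCAPG, NUSAP1, CCNE2, CDC40, SMC4, CDK7 and SMC3, and all 7 had their lowest value on the after 3 array. Choosing genes by a lower mean after cold favours a lowest value on an array after cold. How often after 3 was lowest among all genes at least 1.5-fold lower was not computed. The change exceeded its standard error in 18 genes that were lower (21.7%, against 16.5% of all genes) and 4 that were higher (4.82%, against 6.41%). Few changes were stable across arrays: on leaving out 1 array, the change of 81 of the 83 genes turned its direction or moved by over 1.5 times. The same share over all genes was not computed, so whether these genes differ from the rest in this is not known. The groups did not overlap in 3 of the 83 (3.61%, against 5.02% of all genes). They were CDK2AP1, higher after cold (2.02% of all genes in that direction), and CKAP2L and CDK7, lower after cold (3% of all genes); CKAP2L was named after its values were seen. Each of these shares without overlap was below that of all genes.

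The group of division cycle cyclins and kinases had 5 of 10 genes with a higher and 5 with a lower mean. Its median change was 0.06. The group also held CDK2AP1 and CDK2AP2, which are not cyclins or kinases and were among the 5 higher. The phosphatase CDC25C, also in it, was lower. On leaving out 1 array the median of all 10 ran from -0.016 without before 6 to 0.18 without after 2. It was -0.024 with array weights, and without CDK2AP1, CDK2AP2 and CDC25C it was not computed. CCND3, a D cyclin that links growth signals to the cycle in lymphocytes, was at 11.08, 10.59 and 11.62 after cold and 11.02, 11.19 and 10.61 before. Its highest value was on after 3 and its lowest on after 2, so the group means of 11.10 ± 0.51 and 10.94 ± 0.30 (SD, n = 3 in each group) differed by less than either spread. CCND2, its close relative, was at 9.81, 10.07 and 9.89 after cold and 9.66, 9.28 and 9.85 before, and the before 5 array was lowest (change 0.33 ± 0.26). CDK2AP1, which binds CDK2 and is a subunit of a chromatin-remodelling complex, was at 9.32, 9.30 and 9.57 after cold and 9.04, 8.96 and 9.18 before. All 3 values after cold lay above all 3 before, with means of 9.39 ± 0.15 and 9.06 ± 0.11 (SD, n = 3), and the change was 0.33 ± 0.24 (limma, unadjusted p = 0.204). CDK4, the kinase partner of D cyclins, differed by 0.17 ± 0.30 and CDK2AP2 by 0.13 ± 0.29.

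The mitotic members of this group, CDK1, CCNB1, CCNB2 and CDC25C, all had lower means. CDK1, the kinase that starts mitosis, was at 8.32, 8.05 and 7.39 after cold and 8.16, 8.23 and 8.21 before. The 3 values before cold lay within 0.04 (SD, n = 3) of their mean of 8.20, and after 3 alone was far below them; the change was -0.28 ± 0.30, or -0.01 without after 3. CCNB1, its cyclin partner, was at 6.78, 7.03 and 6.53 after cold and 7.08, 6.53 and 7.14 before, and CCNB2, another B cyclin, at 7.22, 7.06 and 6.88 after cold and 7.26, 7.05 and 7.01 before. Both had overlapping groups and changes of -0.13 ± 0.29 and -0.05 ± 0.25. CDC25C, the phosphatase that activates CDK1, differed by -0.01 ± 0.27 on a dim probe set (mean 4.35). CCNE2, the E cyclin of the entry into DNA synthesis, was dimmer still, at 3.88, 4.26 and 2.47 after cold and 4.11, 4.40 and 4.60 before. A single array, after 3, carries most of its change of -0.83 ± 0.46, which was -0.30 without that array and -1.20 without after 2.

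**Figure D2:**
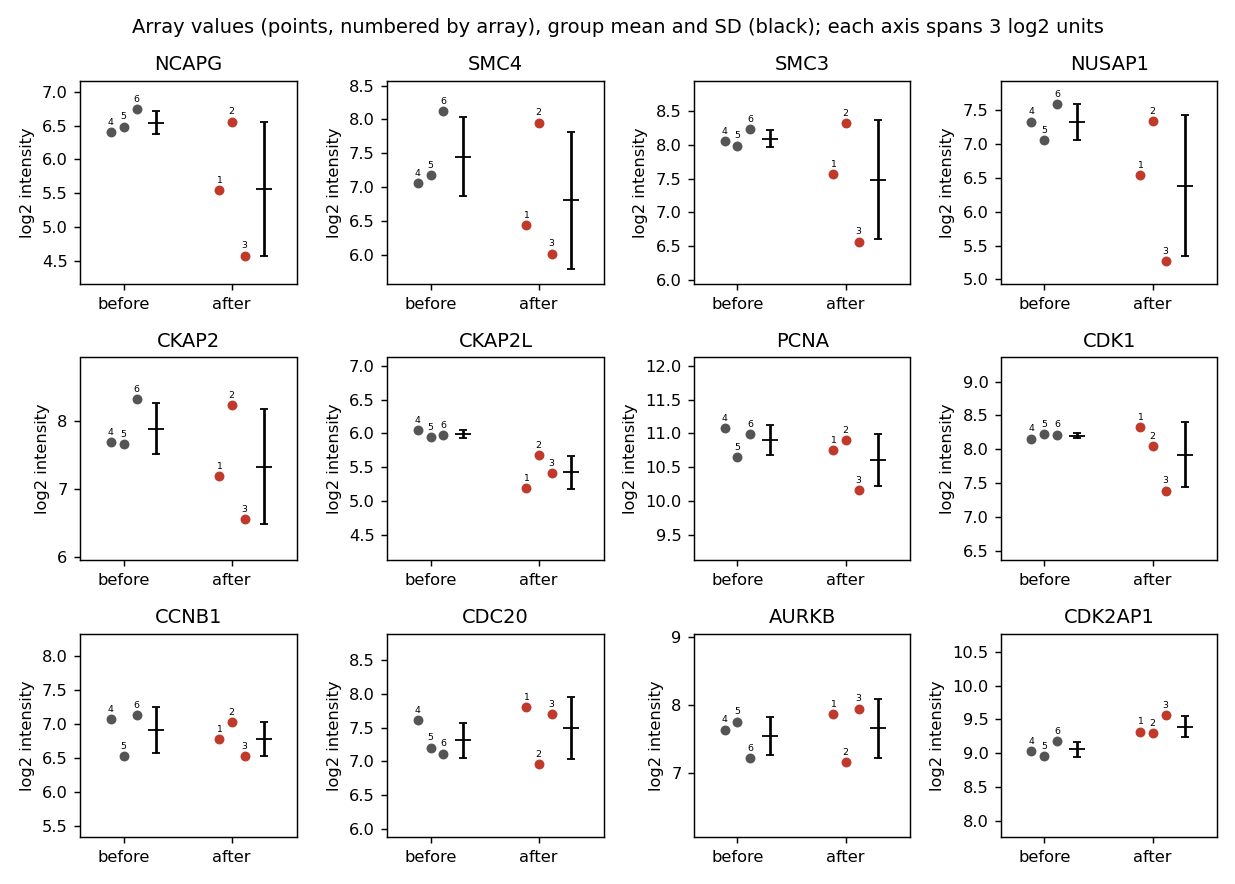
Log2 intensity of 12 genes on each array (points with the array's number; before in grey, after in red), with the group mean and SD in black; every axis spans 3 log2 units. NCAPG, SMC4, SMC3, NUSAP1 and CKAP2 are spread widely after cold, with array 3 lowest; array 2 lies among the values before cold in all of these but SMC3, where it is the highest of the 6, while CKAP2L and CDK2AP1 are the panels without overlap.

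The group of cyclins and kinases with roles mainly outside the division cycle had a median change of 0.06, with 10 of 17 higher. It also held CDK5R1, CDK5RAP1 and CDK5RAP3, which are not cyclins or kinases. On leaving out 1 array the median of all 17 ran from -0.034 without after 1 to 0.090 without before 4. CDK7, the kinase that activates other CDKs and is part of the transcription factor TFIIH, was at 7.34, 7.32 and 6.13 after cold and 7.50, 7.78 and 7.42 before. The groups did not overlap, but after 1 and after 2 lay just under the lowest value before cold, and after 3 lay 1.19 below the next lowest array. The change was -0.63 ± 0.37, or -0.23 without after 3, and a second, dimmer probe set of the gene gave -0.11 ± 0.43. Its cyclin partner CCNH differed by -0.31 ± 0.26, and CCNC, the cyclin of the Mediator kinase module, by -0.26 ± 0.27. CCNG1, a p53-induced cyclin, differed by -0.33 ± 0.31. CDK20, a kinase linked to cilia and growth, was at 8.15, 8.38 and 8.65 after cold and 7.82, 8.21 and 8.13 before, with a change of 0.33 ± 0.27 and 0.35 ± 0.29 on its other probe set. The elongation kinase CDK9 (0.21 ± 0.27) and its relatives CDK12 (0.18 ± 0.33) and CDK13 (-0.12 ± 0.44) and the cyclin CCNK (0.22 ± 0.27) all had changes smaller than their standard errors. CDK5R1, the activator of the neuronal kinase CDK5, was at 13.32, 13.26 and 13.27 after cold and 13.29, 13.31 and 13.30 before. This was the narrowest range of the 83 genes, but another probe set of CDK5R1 had a mean of only 7.05 and spanned 1.04. Which of these levels is that of CDK5R1 was not tested. The remaining members, CCNI, CDK10, CDK11B, CDK16, CDK5RAP1 and CDK5RAP3, had changes between -0.06 and 0.14. CDK5 itself spanned 1.46 across the arrays, with a change of 0.21 ± 0.43.

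In the DNA replication group, 5 of 7 genes were higher and the median change was 0.06. It was -0.042 with array weights, and ran from -0.0012 without before 5 to 0.14 without before 4. PCNA, the clamp that holds DNA polymerase on its template, was at 10.76, 10.90 and 10.17 after cold and 11.08, 10.65 and 10.99 before. Its lowest value was on after 3, 0.48 under the next, while after 1 and after 2 lay among the values before cold; the change was -0.30 ± 0.29. Subunits of the MCM helicase, which opens DNA at origins, did not share a pattern. MCM6 was at 8.11, 9.33 and 8.10 after cold and 8.53, 8.82 and 9.41 before and MCM5 at 8.56, 7.65 and 8.71 after cold and 8.29, 8.24 and 7.75 before. MCM6 was high on after 2 and before 6 and low on after 1 and after 3, and MCM5 showed the opposite order, with changes of -0.41 ± 0.41 and 0.22 ± 0.35. MCM7 was at 10.21, 9.54 and 10.13 after cold and 9.99, 9.72 and 9.61 before, in a similar order to MCM5. MCM3 was at 9.15, 8.88 and 9.17 after cold and 9.12, 8.94 and 8.97 before and MCM4 at 8.72, 8.57 and 8.77 after cold and 8.77, 8.48 and 8.60 before. Both spanned only 0.29, and their changes were 0.05 ± 0.24 and 0.07 ± 0.24. MCM3AP, whose product serves in mRNA export, differed by 0.06 ± 0.24.

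The chromosome structure group held the largest change and the widest spread, with 3 of 8 genes higher, a median change of -0.07 and a median range over the arrays of 1.15. The median change ran from -0.36 without before 5 to 0.041 without before 4, and was -0.29 with array weights and 0.0062 with quantile normalization. A range of at least 2-fold was seen in 6 of these 8, and in 34 of all 83 (41%, against 48.5% of all genes). NCAPG, a condensin I subunit that helps compact mitotic chromosomes, was at 5.55, 6.56 and 4.58 after cold and 6.41, 6.49 and 6.74 before. The 3 values before cold were close together, after 2 lay among them and after 1 and after 3 far below. The means were 5.56 ± 0.99 and 6.54 ± 0.17 (SD, n = 3), a change of -0.98 ± 0.47 (limma, unadjusted p = 0.0668, adjusted p = 1.00); it was -1.48 without after 2 and -0.49 without after 3. SMC4, the ATPase that condensin I and II share, was at 6.44, 7.95 and 6.02 after cold and 7.05, 7.18 and 8.12 before. Its high values on after 2 and before 6 and low ones on after 1 and after 3 made the groups overlap, and the change was -0.65 ± 0.52 (-1.22 without after 2 and -0.26 without after 3), with -0.45 ± 0.44 and -0.36 ± 0.40 on its other probe sets. SMC3, a cohesin subunit, was at 7.57, 8.32 and 6.57 after cold and 8.05, 7.99 and 8.23 before, tight before cold and lowest on after 3 (change -0.60 ± 0.42, or -0.14 without that array).

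Other condensin subunits did not follow NCAPG. NCAPD2, a partner of NCAPG in condensin I, was at 9.20, 8.82 and 9.47 after cold and 9.12, 9.29 and 8.84 before and had its highest value on after 3, where NCAPG had its lowest; the change was 0.08 ± 0.28. NCAPH2 of condensin II was at 7.61, 6.72 and 7.82 after cold and 7.46, 7.27 and 6.88 before, also highest on after 3 (change 0.17 ± 0.35). NCAPD3 differed by 0.12 ± 0.24 and NCAPG2 by -0.07 ± 0.39, both of condensin II, and NCAPH of condensin I by -0.08 ± 0.36.

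**Figure D3:**
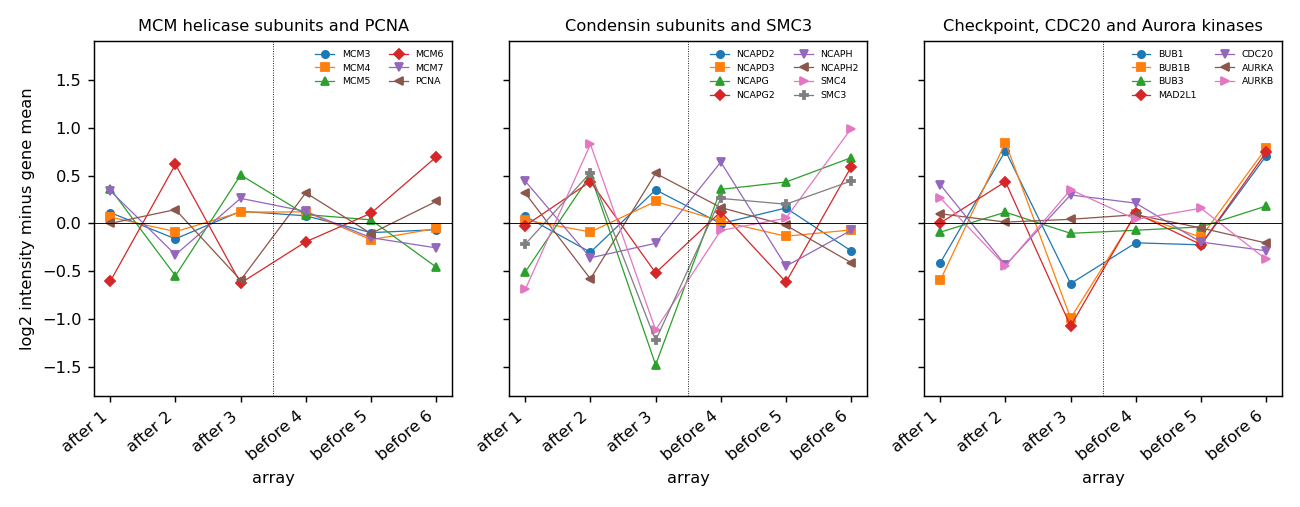
Log2 intensity minus the gene's mean over the 6 arrays (vertical axis) on each array (horizontal axis; the lines only link points of a gene), for MCM subunits with PCNA, condensin subunits with the cohesin subunit SMC3, and spindle checkpoint genes with CDC20 and the Aurora kinases. On after 3, NCAPG, SMC4, SMC3, MAD2L1 and BUB1B lie far below their means, while NCAPD2, NCAPH2 and MCM5 lie above theirs.

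Kinetochore and spindle checkpoint genes had 7 of 18 higher and a median change of -0.12 (-0.20 without after 2 to 0.0044 without after 3), and 10 of the 18 had their lowest value on after 3. BUB1B, a checkpoint kinase-like protein that restrains CDC20, was at 5.09, 6.53 and 4.70 after cold and 5.78, 5.54 and 6.47 before and MAD2L1, its partner in that inhibition, at 8.10, 8.53 and 7.02 after cold and 8.20, 7.87 and 8.83 before. For both, after 3 was lowest, and the highest value was on after 2 or before 6. Their changes were -0.49 ± 0.49 and -0.42 ± 0.44; without after 2 that of BUB1B was -1.04. BUB1, the checkpoint kinase, was at 5.41, 6.57 and 5.19 after cold and 5.61, 5.59 and 6.52 before, with a change of -0.19 ± 0.43, or 0.08 without after 3. BUB3, which carries BUB1 and BUB1B to kinetochores, was at 10.31, 10.52 and 10.30 after cold and 10.33, 10.37 and 10.58 before, a range of 0.28. CDC20, the activator of the anaphase-promoting complex that the checkpoint inhibits, was at 7.80, 6.97 and 7.70 after cold and 7.61, 7.21 and 7.12 before. It was lowest on after 2 and high on after 1 and after 3, with a change of 0.18 ± 0.31, or -0.13 with array weights.

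AURKB, the Aurora kinase that corrects faulty spindle attachments, was at 7.86, 7.15 and 7.95 after cold and 7.64, 7.75 and 7.22 before, again lowest on after 2 and before 6 (change 0.12 ± 0.31). AURKA, the Aurora kinase of the spindle poles, was at 6.05, 5.96 and 5.99 after cold and 6.04, 5.90 and 5.74 before on one dim probe set, with a change of 0.11 ± 0.24, and a further probe set gave -0.26 ± 0.26. Of the centromere proteins, CENPM had the largest positive change of the group. It was at 8.59, 7.74 and 8.88 after cold and 8.26, 8.50 and 7.56 before, highest on after 3 and lowest on before 6, a change of 0.29 ± 0.38. CENPF, a large kinetochore protein of dividing cells, spanned 1.94 across the arrays with a change of -0.34 ± 0.54. CENPN (-0.42 ± 0.35), CENPC (-0.35 ± 0.30), CENPO (-0.33 ± 0.34), CENPI (-0.31 ± 0.42) and CENPS (-0.22 ± 0.37) all had lower means and were lowest on after 3. Other centromere proteins did not share this: CENPT differed by -0.04 ± 0.35 and was lowest on before 6. CENPX, which pairs with CENPS, differed by 0.24 ± 0.29 and, like CENPM, was highest on after 3. MAD2L2, better known as a DNA polymerase zeta subunit, differed by 0.09 ± 0.31, and AURKAIP1, a mitochondrial ribosome protein, by 0.17 ± 0.33.

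Among the spindle proteins and kinesins of division, 7 of 8 had a lower mean and the median change was -0.16 (-0.48 without after 2 to -0.094 without after 3, and -0.33 with array weights). NUSAP1, which bundles spindle microtubules, was at 6.54, 7.34 and 5.27 after cold and 7.33, 7.06 and 7.59 before. After 2 was level with the values before cold and after 3 was 1.27 below every other array; the means of 6.38 ± 1.04 and 7.33 ± 0.27 (SD, n = 3) gave a change of -0.95 ± 0.49 (limma, adjusted p = 1.00), or -0.39 without after 3 and -1.42 without after 2. CKAP2, a microtubule-stabilising spindle protein, was at 7.19, 8.24 and 6.56 after cold and 7.69, 7.66 and 8.33 before. It was highest on before 6 and after 2 and lowest on after 3, so the groups overlapped (change -0.56 ± 0.44, or -0.18 without after 3 and -1.02 without after 2). CKAP2L, its relative at the spindle, was at 5.19, 5.68 and 5.41 after cold and 6.05, 5.95 and 5.98 before. All 3 values after cold lay below all 3 before, with means of 5.43 ± 0.24 and 5.99 ± 0.05 (SD, n = 3), and leaving out an array gave changes of -0.69 to -0.45. Its change of -0.57 ± 0.25 and that of NCAPG were the only ones of the 83 over 2 standard errors (2.41%, against 2.07% of all genes), both on probe sets below the 25th percentile. KIF22, a chromosome-arm kinesin, was the member with a higher mean, at 7.14, 6.61 and 6.82 after cold and 6.94, 6.72 and 6.50 before (change 0.14 ± 0.27, or -0.15 with array weights). The midzone and chromosome kinesins KIF4A (-0.22 ± 0.30), KIF23 (-0.07 ± 0.44), KIF20A (-0.0031 ± 0.25) and the depolymerase KIF2C (-0.09 ± 0.26) had changes smaller than their standard errors.

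The other kinesins, most of them cargo carriers, had 4 of 5 lower and a median change of -0.31, or 0.022 without after 3 and -0.73 without after 2. KIF5B, the conventional kinesin heavy chain, was at 9.52, 10.61 and 9.03 after cold and 9.78, 9.79 and 10.53 before. The values on after 2 and before 6 stood above the other 4, and after 3 was lowest (change -0.31 ± 0.43). KIF2A, which depolymerises microtubules in neurons and at spindle poles, was at 6.50, 7.64 and 6.28 after cold and 6.998, 7.40 and 7.77 before, with the same arrays at its ends and a change of -0.58 ± 0.40. KIF3C was at 6.19, 5.98 and 6.09 after cold and 6.34, 5.80 and 6.05 before (change 0.02 ± 0.26), and the kinesin-II motors KIF3A and KIF3B differed by -0.43 ± 0.33 and -0.04 ± 0.31.

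The 3 measured subunits of the anaphase-promoting complex, the ubiquitin ligase that ends mitosis, all had lower means, with a median of -0.22, or -0.05 without after 3 and -0.47 without after 2. CDC16 was at 8.004, 8.88 and 7.69 after cold and 8.16, 8.45 and 8.88 before (change -0.30 ± 0.37) and CDC26 at 9.57, 8.98 and 8.63 after cold and 9.13, 9.55 and 8.75 before (change -0.08 ± 0.34, or 0.13 without after 3). CDC16 was highest on before 6, where CDC26 was second lowest. CDC23 differed by -0.22 ± 0.30.

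CDC-named genes with other main functions had a median change of -0.16 (-0.33 without after 2 and -0.069 without after 3) and 3 of 7 higher. CDC40, a splicing factor, was at 8.01, 8.73 and 7.12 after cold and 8.73, 8.42 and 8.76 before, and CDC5L, a core spliceosome protein, at 8.30, 9.35 and 8.10 after cold and 8.91, 9.08 and 9.40 before. For both, after 3 was lowest and before 6 highest, with after 2 close to it. Their changes of -0.68 ± 0.41 and -0.55 ± 0.37 were accompanied by -0.64 ± 0.38 and -0.41 ± 0.47 on their other probe sets. The change of CDC40 was -0.27 without after 3 and -1.08 without after 2, and that of CDC5L -0.31 and -0.93. CDC34, a ubiquitin-conjugating enzyme that works with cullin ligases, was at 7.70, 7.42 and 8.16 after cold and 7.53, 7.58 and 7.24 before and was highest on after 3 (change 0.31 ± 0.29). CDC37, a co-chaperone that brings kinases to HSP90, differed by 0.14 ± 0.32, its relative CDC37L1 by -0.42 ± 0.34, CDC73 of the PAF1 transcription complex by 0.06 ± 0.32 and CDC123, a translation factor assembly protein, by -0.16 ± 0.26.

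**Figure D4:**
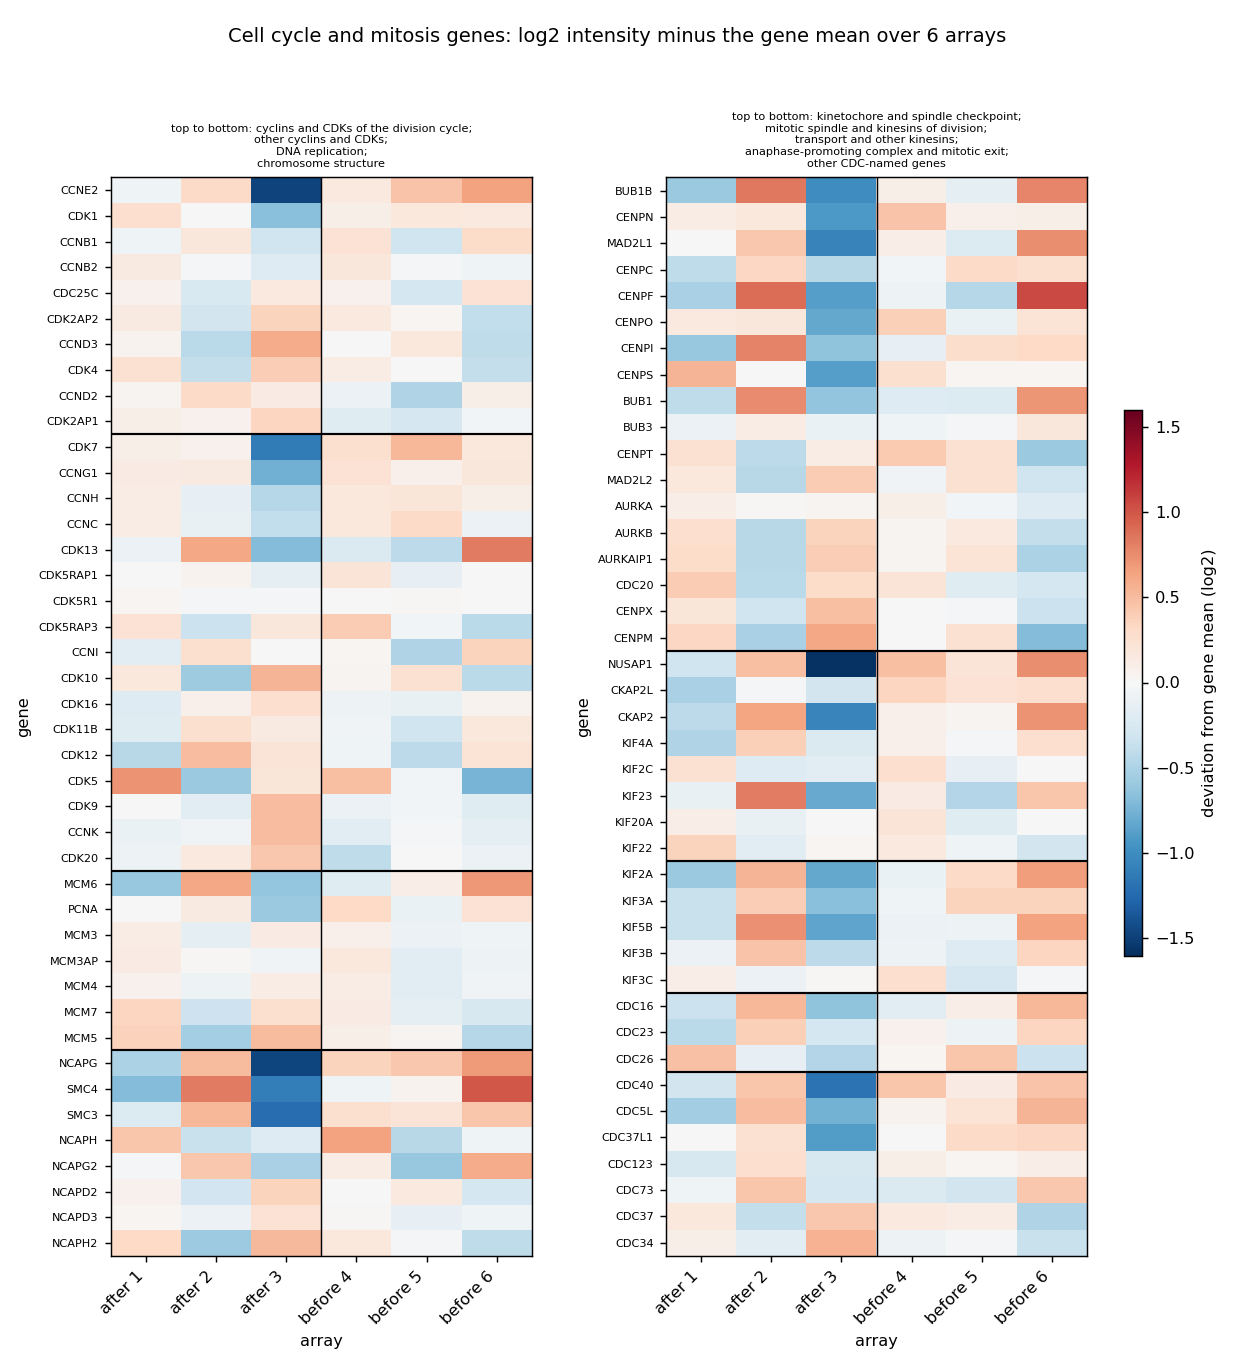
Deviation of each gene's log2 intensity from its mean over the 6 arrays (red above, blue below; the scale ends at 1.6) for the 83 genes in rows, by role group, and the arrays in columns, with a line between the arrays after and before cold. The after 3 column holds the deepest blue (NCAPG, NUSAP1, CCNE2), and after 2 and before 6 look alike although they belong to different groups.

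The array on which a gene was lowest was after 3 for 37 of the 83 genes (44.6%), against 32.5% of all genes. The lowest value was on before 5 for 14 (16.9%, against 13.4%), after 2 for 13 (15.7%, against 16.9%) and before 6 for 12 (14.5%, against 25.8%). It was on after 1 for 5 (6.02%, against 6.94%) and on before 4 for 2 (2.41%, against 4.39%). After 3 was also the array with the highest value for 21 (25.3%, against 36.4% of all genes). Before 6 held the highest value of 19 genes (22.9%, against 13.6%) and before 4 that of 15 (18.1%, against 8.28%), while after 2 held that of 16 (19.3%, against 18.1%), after 1 of 9 (10.8%, against 12.2%) and before 5 of 3 (3.61%, against 11.5%). The median deviation of the 83 genes from their own means was -0.21 on after 3, and 0.04 and 0.07 on after 1 and after 2. On the before arrays it was 0.09, -0.02 and 0.09. All genes together had 0.03 on after 3. By role group the deviation on after 3 ran from -0.67 for the transport and other kinesins and -0.47 for the anaphase-promoting complex to 0.14 for the cyclins and kinases of the division cycle and 0.15 for the others. Monocyte markers (3 of 4 measured: CD14, CSF1R and MSR1) summed to an intensity of 1454 on after 3 and 1510 on before 5, and to 772 to 1007 on the other arrays. Of these, MSR1 was lower after cold without overlap (limma, unadjusted p = 0.0465, adjusted p = 1.00; change -0.66 ± 0.28). Neutrophil markers (3 of 5 measured) summed to 24674 on after 3 and 24276 on before 5, and to 15918 to 19685 on the others. For both lists the groups overlapped, and their part in the low values on after 3 was not tested. The difference between these genes and the rest within 1 array has no replicate and was not tested.

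**Figure D5:**
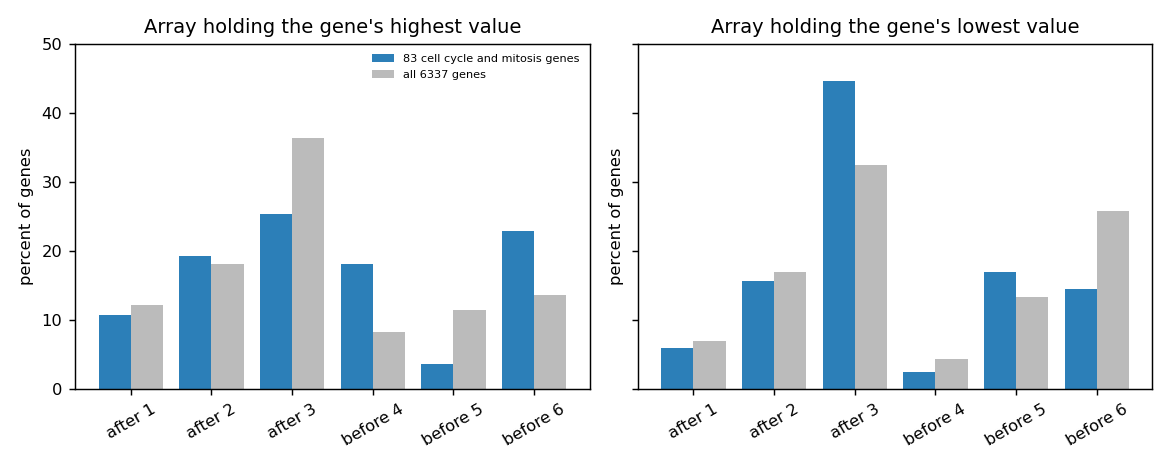
Percent of genes (vertical axis, from 0) whose highest (left) or lowest (right) value lay on each array, for the 83 cell cycle and mitosis genes (blue) and all 6337 genes (grey). After 3 holds the lowest value of 44.6% of the 83 genes and of 32.5% of all genes.

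The count at an unadjusted p under 0.05 differed between settings. Without the after 2 array, 15 of the 83 genes were under that limit in limma (18.1%, against 12.5% of all genes), all lower after cold. They were NCAPG, NUSAP1, SMC3, SMC4, CKAP2, CKAP2L, BUB1B, CENPI, CCNE2, MCM6, CDC40, CDC5L, KIF2A, KIF3A and KIF5B, and the smallest adjusted p was 0.270. Leaving out after 2 and before 6 together gave 12 (14.5%, against 9.44% of all genes), again all lower, with a smallest adjusted p of 0.492. Without after 3 there were 0 of 83. With array weights there were 8 (9.64%, against 6.03% of all genes), 7 lower and CDK20 higher, with a smallest adjusted p of 0.906. With animals as a block the count was 0 to 9 over the 6 possible matchings. The 9 came with the matching 1-4, 2-6, 3-5 (10.8%, against 8.43% of all genes; smallest adjusted p = 0.492); the true matching is not known from the labels.

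Partner genes outside the name pattern were taken from 5 lists, of which 82 of 142 genes were measured. In limma, 0 of the 82 passed an adjusted p of 0.05 and 0 an unadjusted one, 46 had a lower mean and the median change was -0.06. The groups did not overlap in 4 of the 82 (4.88%, against 5.02% of all genes): MIS12, LIN52 and POLE2 were lower after cold and GADD45B, a stress-induced regulator, was higher (0.19 ± 0.23); POLE2 and GADD45B were named after their values were seen. Mitotic kinase, kinetochore and cytokinesis genes had 10 of 16 lower (median -0.20). MIS12, which anchors the outer kinetochore, was at 6.73, 7.05 and 5.17 after cold and 7.36, 7.38 and 7.17 before, without overlap (change -0.99 ± 0.47). The spindle protein HMMR differed by -0.90 ± 0.47 and ECT2, which positions the cleavage furrow, by -0.63 ± 0.35. Origin licensing and replication fork genes had 17 of 31 lower (median -0.11), with the origin recognition subunits ORC3 and ORC5 at -0.70 ± 0.38 and -0.75 ± 0.45 and the clamp loader RFC3 at -0.60 ± 0.33. Of 5 DNA damage checkpoint genes 3 were lower (median -0.27), among them RAD17 (-0.91 ± 0.41), which loads the checkpoint clamp, the kinase CHEK1 (-0.88 ± 0.47) and HUS1 (-0.27 ± 0.27). APC/C, SCF and cohesin genes had 11 of 17 lower (median -0.10), with ANAPC16 at -0.47 ± 0.35, the CDK-binding CKS1B at -0.39 ± 0.33 and the ubiquitin-conjugating UBE2S at 0.35 ± 0.29. Only the E2F, RB and CDK inhibitor list had more higher than lower members, 8 of 13 (median 0.05), with TFDP1, the E2F partner, at 0.34 ± 0.28 and E2F4 at 0.27 ± 0.29. LIN52, of the complex that silences cell cycle genes in resting cells, was at -0.53 ± 0.27, without overlap between the groups. All of these except GADD45B, TFDP1, E2F4 and UBE2S had their lowest value on after 3. They were named for a small p or for groups without overlap, which favours genes with low values after cold. Among all 82 partner genes, 43 had their lowest value on after 3, as did 32.5% of all genes.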

How the data were processed

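RNA of white blood cells was hybridised to 6 one-colour Affymetrix bovine arrays, 3 after and 3 before cold. The deposited values are the authors' linear intensity per probe set, for 12763 probe sets; per the submitters' processing notes GCOS and RMA were used (their versions and order, and the genome build: not given in the sources used here). RMA corrects background, aligns the arrays' distributions and summarises probes, which can shrink differences between arrays. The deposited values were not fully aligned, however. The median log2 intensity of an array was lowest on after 3 (7.25) and highest on after 2 (7.49) and before 6 (7.44). The part of these differences in the results was not tested beyond the alternative normalizations. The number of arrays limits the precision.

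The log2 of each intensity was taken without pseudocount, filter or further normalization, and all probe sets were fitted with limma 3.58.1 in R 4.3.3 (after minus before, moderated variance, no block, two-sided, Benjamini-Hochberg over all probe sets). The code was tested on simulated data. Probe sets were named by the platform annotation: 8125 had 1 symbol, 56 several and 4582 none. All 83 genes (106 probe sets, 19 genes with more than 1) matched a current RefSeq gene identifier of the assembly ARS-UCD2.0, and 0 symbols changed. Lists were matched by exact symbol. Sequences of these genes were not used here.

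The genes, role groups, lists and tests were chosen with earlier results of these data known. Genes with values on every array are those of a fixed list of well-known division genes, where measured. In each role group, the gene with the highest mean, the largest positive and the largest negative change was added. Any gene at an unadjusted p under 0.05 would also be added. From each partner list, the 3 genes with the smallest unadjusted p are named. The alternatives were filters on the dimmest 25% or 50% of probe sets, variance trends, array weights, 3 normalizations, other choices among a gene's probe sets, leaving out arrays, and animal blocks under all 6 matchings.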

Additional observations from a re-analysis of the deposited data

How the results depend on the processing

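With limma, 0 of the 83 genes passed an adjusted p of 0.05 under every alternative run. The count at an unadjusted p under 0.05, 0 in the reported fit, was 8 with array weights (9.64%, against 6.03% of all genes), 12 without both after 2 and before 6 (14.5%, against 9.44%), and 1 (1.2%) under each of the 3 normalizations, against 0.978% of all genes with median centring and 0.868% with quantile and with cyclic loess. It was 0 to 15 on leaving out each array, 15 without after 2 (18.1%, against 12.5%). No paired analysis by replicate number was possible because the labels do not say which samples share an animal. All 6 matchings were fitted as a block, and the count was 9 for 1-4, 2-6, 3-5 (8.43% of all genes), 6 for 1-5, 2-6, 3-4 (7.23%, against 5.11%), 2 for 1-6, 2-4, 3-5 (2.41%, against 0.521%), 1 for 1-6, 2-5, 3-4 (1.2%, against 0.331%) and 0 for the others. The 3 genes without overlap became 1 without the dimmest 50%, 44 without after 2 and before 6 (47.9% of all genes) and 3 to 39 on leaving out each array (42.8% of all genes without after 2), where fewer arrays make overlap rarer. The median change of -0.05 moved by less than the spread between arrays, from -0.15 to -0.0083 on leaving out each array and to 0.06 without the dimmest 50%. Without the dimmest 50%, the median over all genes was 0.05.

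Of 520 values of named genes under alternatives, 36 had the opposite direction, none past the threshold. With array weights these were AURKA (-0.028), BUB1 (0.059), BUB3 (0.035), CDC20 (-0.13), KIF22 (-0.15), KIF3C (-0.22), MCM3 (-0.038), MCM4 (-0.043), MCM7 (-0.042) and NCAPH2 (-0.017). With the mean of a gene's probe sets they were AURKA (-0.074) and CDK5R1 (0.043), and with the probe set of largest range AURKA (-0.26) and CDK5R1 (0.21). CDK5R1 was at 0.019 with median centring and 0.018 with cyclic loess. On leaving out each array, the change ran from -0.042 to 0.37 for AURKB, -0.61 to 0.12 for BUB1, -0.12 to 0.028 for BUB3, -0.14 to 0.034 for CCNB2, -0.10 to 0.41 for CCND3, -0.34 to 0.13 for CDC26, -0.0025 to 0.27 for KIF22, -0.11 to 0.16 for KIF3C, -0.76 to 0.034 for KIF5B, -0.74 to 0.010 for MAD2L1, -0.0012 to 0.14 for MCM4, -0.071 to 0.25 for NCAPD2 and -0.044 to 0.51 for NCAPH2. Of the 83 genes, 40 kept their direction under the 13 alternatives that recompute a change, 28 lower and 12 higher after cold; the filters, variance trends and animal blocks leave the change of a gene as it is. Why values changed with these settings was not tested, nor was the limit set by dim signal, since no background measure was used.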

Other observations

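Probe sets of a gene did not always move together. Of the 19 genes with more than 1 probe set, 5 had probe sets with opposite signs: AURKA, CCNI, CDK13, CDK5R1 and NCAPH. For CDK5R1, 3 probe sets with means of 13.12 to 13.29 spanned 0.06 to 0.10 over the 6 arrays. The other, with a mean of 7.05, spanned 1.04, with a change of 0.21 ± 0.34 (SE). The cyclin gene CCNI had changes of 0.06 ± 0.30 and -0.02 ± 0.33, the condensin gene NCAPH -0.08 ± 0.36 and 0.12 ± 0.36, and the kinase CDK13 -0.12 ± 0.44, -0.08 ± 0.34 and 0.10 ± 0.30. Probe sets of the kinetochore gene CENPN (-0.42 ± 0.35 and -0.62 ± 0.40), of MCM6 (-0.41 ± 0.41 and -0.40 ± 0.45) and of CENPM (0.29 ± 0.38 and 0.29 ± 0.41) shared their sign.

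Among markers of other blood cells, the 5 NK and cytotoxic genes measured summed to an intensity of 1140 on after 2 and 1276 on before 6, the lowest of the 6 arrays, and to 1587 to 2275 on the rest. Singly, NKG7, PRF1 and NCR1 were lowest on after 2 or before 6, but KLRK1 was lowest on after 3. GZMB was highest on before 6 and lower after cold without overlap (change -0.59 ± 0.27), as were 3% of all genes. The B cell genes CD79A and MS4A1 summed to 3401 to 4523 after and 3729 to 4550 before cold. Their part in the cell cycle values was not tested.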
